A study of Mus musculus with 4 samples.

Results

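Library 6 of the series is a pool of PCR products that span 1 side of a donor DNA integrated into the genome of the mouse retina. It was chosen by its tissue label, retina, and its library title, and it is 1 of the 4 samples of the series. The 4 libraries cover both junctions of homology-independent targeted integration (HITI) in 1 retina (libraries 5 and 6) and in 1 liver (libraries 1 and 2), with a different target in each tissue. The retina came from a C57BL/6J mouse that received AAV8 vectors under the retina. By the study's methods, 1 vector carried SpCas9 under the photoreceptor-specific IRBP promoter and the other carried the gRNA with a promoterless DsRed donor DNA. Mice of these experiments were 4 weeks old at injection, each eye received 2.5e9 genome copies of each vector, and the DNA was taken 30 days later. Which of the study's DsRed donors and which dose this retina received is not given separately for the library. The liver came from a C57BL/6J mouse injected through the temporal vein at post-natal day 1 or 2, and was likewise collected at 30 days. By the study's methods, this mouse also received 2 AAV8 vectors, dosed by body weight. Of these, 1 carried SpCas9 under the liver-specific HLP promoter, and the other a gRNA for the liver target with a promoterless DsRed donor DNA. Retinas and livers given a scramble gRNA yielded no PCR product according to the series design, and no control library was used here. Each junction was sequenced in 1 library from 1 animal, so no test between libraries was made.

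In HITI, the donor DNA is flanked by inverted copies of the gRNA target site, so that SpCas9 cuts both the genome and the donor, and non-homologous end joining ligates the ends. Ligation in the intended orientation destroys the target site, while nucleotides gained or lost at the ends appear as insertions and deletions (INDELs) at the junctions. SpCas9 cuts on the target side of the protospacer-adjacent motif (PAM), which leaves the longer part of the target site on 1 side of the cut and the shorter part with the PAM on the other.

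The tissue label does not name the junction, so the most frequent base at each of the 135 positions was compared with the reference sequence of the targeted locus. The last 67 nt matched the locus exactly. The first 68 nt lay outside this match and were taken as donor DNA, without comparison with a donor sequence. This order is that of the 3′ junction. The donor side of the library ended with an inverted 6-nt remnant, made up of the end of the target site and its PAM, followed by the same 6 nt of the locus. The expected junction is therefore a 12-nt palindrome, with the cleavage site at its centre. The lists of INDELs give positions and lengths but no inserted bases.

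Depth, the sum of reads with a base, a gap or a base of low quality, was 1406606 at the donor nucleotide next to the cut. It ranged from 1401923 to 1419050 over the 34 positions of the window, which held 17 nt on either side of the site. Bases of low quality made up 6.52% of the depth at the cleavage site, and 4.71% to 33.9% along the 135 positions. With this depth, a count of 3 reads equals 0.000213%. All intervals below are 95% Wilson intervals. They cover counting error only, because PCR reads without molecular identifiers are not independent molecules.

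INDELs that each reached 0.1% of the depth, the minimum the study used for the retina, were counted in 1037952 reads. The INDEL share was 73.8% (95% interval 73.7 to 73.9). If no read carried more than 1 of them, 26.2% of the reads had none. Insertions took most of this share, with 68.7% of the reads (68.6 to 68.7), and deletions 5.12% (5.08 to 5.15). With a window of 5 nt on either side the deletion share was 0%, since both deletions past the minimum were listed as opening 6 or 7 nt before the site, and the INDEL share was 68.7%. Without a minimum the INDEL share was 74.2% (74.1 to 74.2), with 68.9% for insertions and 5.30% for deletions. Only 7 INDELs, 5 insertions and 2 deletions, passed the minimum among the 164 combinations of position and length that were listed. The 55 insertions below the minimum added up to 0.183% of the depth and the 102 deletions to 0.177%, so rare INDELs made up little of the reads. Of the listed INDELs, 13 insertions and 30 deletions rested on a single read.

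**Figure D1:**
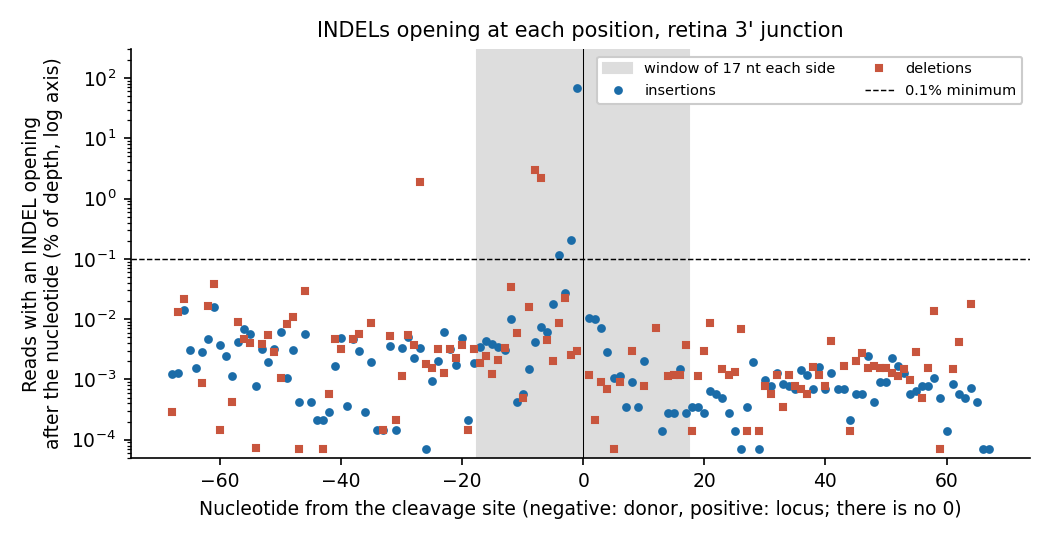
Share of reads with an insertion (circles) or a deletion (squares) opening after each nucleotide of library 6, from the per-position counts, as a percentage of the depth there on a log axis, against the distance from the cleavage site in nt; positions with no such read are not drawn. Insertions peak at the cleavage site at 68.4%, and 3 deletion positions lie above the dashed 0.1% line, 1 of them outside the grey window.

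A single entry of the list, 1 bp inserted at the cleavage site, held 881968 reads, whichever base was inserted. It made up 62.7% of the depth (62.6 to 62.8) and 91.3% of the insertion reads past the minimum. An insertion of 2 bp at the same place followed, with 77764 reads or 5.53% (5.49 to 5.57). Together, insertions exactly at the cleavage site held 99.4% of the insertion reads past the minimum.

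The other insertions past the minimum were all of 1 bp and each lay within 3 nt of the site. The insertion 1 nt into the locus had 2314 reads (0.165%, 0.158 to 0.171), and the insertion 1 nt into the donor had 2303 (0.164%, 0.157 to 0.171). The insertion 3 nt into the donor, with 1613 reads, was the last above the minimum at 0.115% (0.109 to 0.120). The next one, of 2 bp placed 1 nt into the donor, had 488 reads or 0.0347% (0.0317 to 0.0379), 3.31 times fewer. An inserted base that equals its neighbour can be placed on either side of it, so entries 1 nt apart may hold the same product. The per-position counts bear on this at 1 place. They held 148 insertions after the first locus nucleotide, against 2619 in the list, and 962035 at the cleavage site, against 959735 in the list. By the per-position counts, 3 positions reached 0.1% for insertions, namely the cleavage site and the places 1 and 3 nt into the donor.

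Both deletions that opened inside the window and passed the minimum removed donor nucleotides only. The first, of 6 bp, was found in 41863 reads, or 2.98% (2.948 to 3.004). It was listed as opening 7 nt before the cleavage site, and of its 2 equal placements the one opening 6 nt before the site removes exactly the inverted remnant of the target site and PAM, with no locus nucleotide lost. The second, of 3 bp, was found in 30127 reads, or 2.14% (2.12 to 2.17). It has 3 equal placements, all inside the 6-nt remnant, and leaves 3 nt of it. Among the deletions listed in the window, the next, 1 bp opening 11 nt before the site, had 393 reads (0.0279%, 0.0253 to 0.0308), 76.7 times fewer than the 3 bp deletion.

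The counts of gaps at each nucleotide show how the loss was shared between the ends. Gaps were counted in 7.05% of the reads at the fifth donor nucleotide from the site, 4.90% at the second and 1.9% at the last. The step between the second and the last follows the placement of the 6 bp deletion in the authors' alignment, which spares the last nucleotide. On the locus side, the first nucleotide was missing in 1.86% of the reads (1.84 to 1.89), with 26410 gaps. At the second locus nucleotide only 83 gaps were left among 1416360 reads, or 0.00586% (0.00473 to 0.00726). The locus end was thus intact beyond its first nucleotide in nearly all reads that aligned across it.

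**Figure D2:**
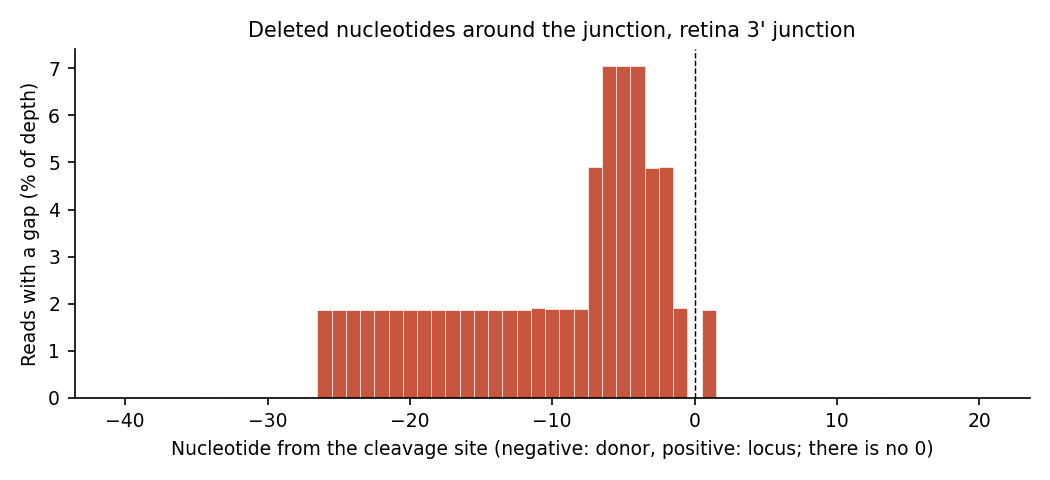
Share of reads of library 6 with a gap at each nucleotide, as a percentage of the depth there, from 40 nt on the donor side to 20 nt on the locus side of the cleavage site (dashed line). The low plateau at about 1.87% runs from the donor into the first locus nucleotide, and the peak of 7.05% lies in the inverted remnant.

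The low plateau of gaps belongs to a deletion that the window does not hold. With 26 nt of donor left before the site, 26202 of 1403413 reads opened a deletion, a rate of 1.87% (1.84 to 1.89). At least 26239 gaps were then counted at every one of the next 27 nt, and 83 at the nucleotide after them. The length of 27 bp was read from these gap counts, because the lists begin inside the window; it comprises 26 nt of donor and 1 nt of locus, with no other equal placement. This deletion enters the depth but not the deletion share above. With the gaps at the first nucleotide of the window added, an alternative chosen after seeing the data, the deletion share was 6.99% and the INDEL share 75.7%.

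Elsewhere outside the window, INDELs were rare. Apart from the 27 bp deletion, the highest deletion rate over the other positions was 0.0383%, with 535 reads, at a place 60 nt before the site. The highest insertion rate outside the window was 0.0157%, at the same place. There, 30.5% of the reads had a base of low quality, against a median of 9.20% over the positions of library 6. Medians over the 101 positions outside the window were 0.000918% for insertions and 0.00128% for deletions. The rate of insertions at the cleavage site was 4366 times the highest rate outside the window.

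INDEL lengths fell into 2 sets that did not mix. All 5 insertions past the minimum were of 1 or 2 bp, and both deletions were multiples of 3 bp. As a result, the same 93.1% of INDEL reads (93.0 to 93.1) had a length of 1 or 2 bp and a length that is not a multiple of 3. Without a minimum the split was nearly as sharp. Insertions of 1 bp then made up 91.9% of the insertion reads and those of 2 bp 8.12%, while 12 reads had an insertion of 3 bp. Among deletions, 6 bp and 3 bp took 56.8% and 40.9% of the deletion reads, and 1 bp took 1.71%, spread over all 34 positions. Longer INDELs in the window were found in few reads, the longest being a deletion of 39 bp in 17 reads and an insertion of 27 bp in 1 read.

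**Figure D3:**
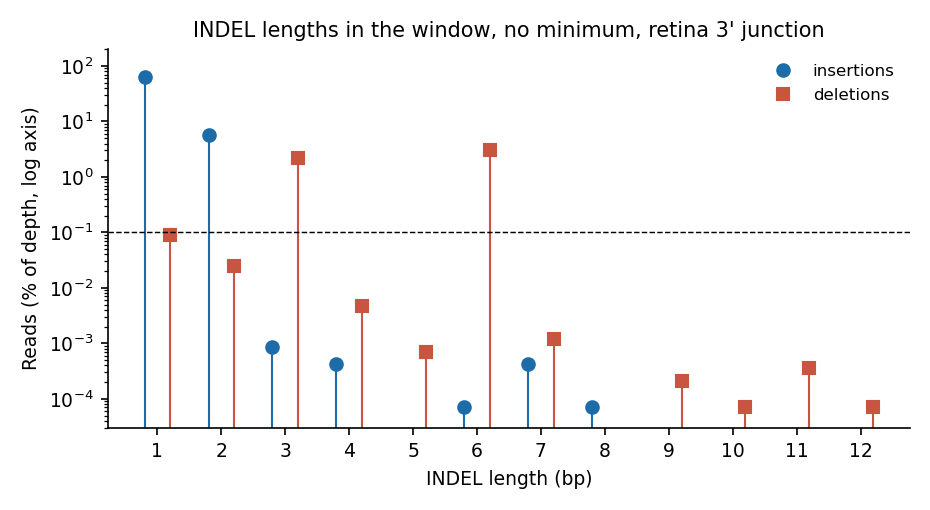
Reads of library 6 with an insertion (circles) or a deletion (squares) of each length up to 12 bp in the window, with no minimum, as a percentage of the depth at the cleavage site on a log axis. Insertions of 1 and 2 bp and deletions of 3 and 6 bp stand above the dashed line at 0.1%, and 1 bp deletions, summed over 34 positions, reach 0.0905%.

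Reads also differed in bases at the junction. Among the called bases, with gaps and low quality left out, the second most frequent base passed 1% at 3 of the 135 positions, and these 3 are adjacent to each other at the cleavage site. At the donor nucleotide second from the site, the second base was read in 26714 of 1246761 called bases, or 2.14% (2.12 to 2.17). At the last donor nucleotide it was read in 30341 of 1288146, or 2.36% (2.33 to 2.38), and at the first locus nucleotide in 39079 of 1294592, or 3.02% (2.99 to 3.05). The next highest shares, 0.842% and 0.569%, lay 65 and 60 nt before the last donor nucleotide, where 33.9% and 30.5% of the reads had a base of low quality. The median over all positions was 0.0196%. The counts do not link a base to an INDEL of the same read, so whether these differences and the INDELs shared reads was not tested.

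**Figure D4:**
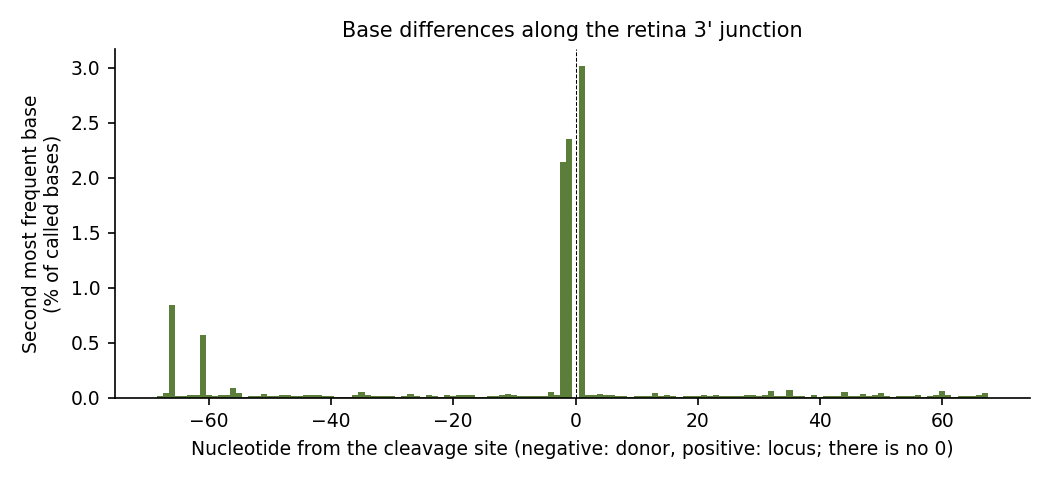
Share of the second most frequent base among the called bases at each position of library 6, in percent, against the distance from the cleavage site in nt (dashed line). The 3 tall bars at the site reach 2.14%, 2.36% and 3.02%, and the 2 bars far into the donor lie at positions with many bases of low quality.

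Some alignments started or stopped near the junction. Read ends at the last donor nucleotide numbered 1961, or 0.139% of the depth, against a median of 0.00791% over the window positions that do not adjoin the site. Ends were more frequent at the first locus nucleotide, with 2163 (0.153%), and at the first nucleotide of the inverted remnant, with 2821 (0.201%), so they did not peak at the site itself. Read starts at the first locus nucleotide numbered 12205, or 0.861%, against a median of 0.0106%. A further 5001 reads (0.356%) started at the last donor nucleotide. Smaller peaks of starts lay elsewhere in the window, with 3108 (0.219%) at the locus nucleotide 12 nt from the site, 1758 (0.125%) at the first nucleotide of the inverted remnant and 1600 (0.113%) at the second locus nucleotide. Depth rose by 10246 reads across the site, and the starts at the first locus nucleotide less the ends at the last donor nucleotide account for this to within 2 reads. Over the other positions the largest such deviation was 71 reads. Bases that such partial alignments left out are not in the counts.

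The pattern of library 6 differed in several values from the other 3 libraries, each taken with the same window and the 0.1% minimum. Depth at the site was 3079384 in library 5 (retina, 5′ junction), 426390 in library 2 (liver, 3′ junction) and 119189 in library 1 (liver, 5′ junction). Insertions were found in 4.60% of the reads in library 5, 18.03% in library 2 and 4.51% in library 1, all far below the 68.7% of library 6. Deletions took 13.7%, 24.5% and 22.1% of the reads in the same order, all above the 5.12% of library 6. Library 6 was therefore the only one of the 4 in which insertions outnumbered deletions at this setting. Besides the target, the tissues differed in age at injection, route, dose and SpCas9 promoter. Differences between tissues therefore cannot be told apart from differences in any of these. Both junctions of a tissue came from the same animal and target, but with 1 library each, so no difference between junctions was tested.

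**Figure D5:**
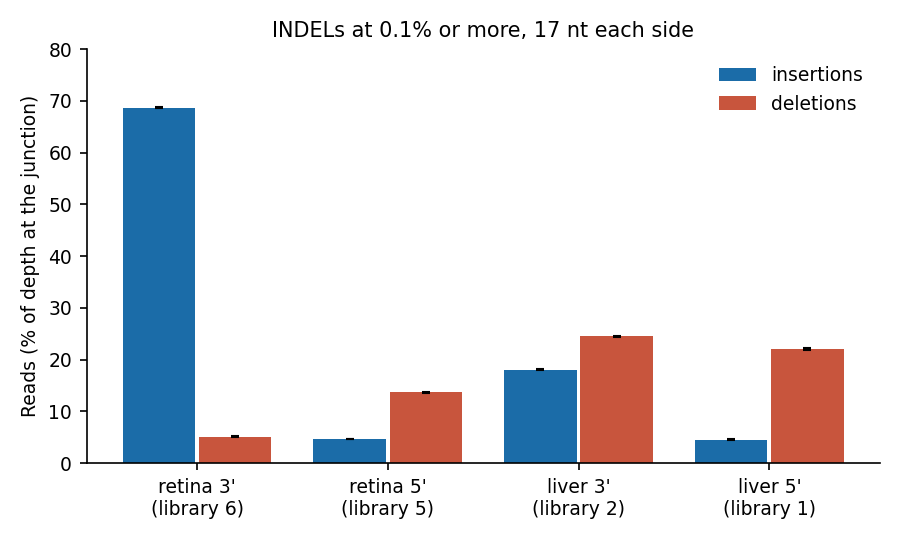
Insertion and deletion shares of the 4 libraries at 0.1% or more in the 34-position window, as a percentage of the depth at the junction; bars start at 0 and error bars are 95% Wilson intervals, which cover counting error only. Library 6 has the highest bar for insertions, 68.7%, and the lowest for deletions, 5.12%.

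Library 6 also held few combinations of position and length. Past the minimum there were 7 in library 6 and 8 in library 5, against 66 in library 2 and 65 in library 1. Without a minimum the numbers lay closer together, with 164, 206, 768 and 359 in libraries 6, 5, 2 and 1. The study's own minimum for the liver was 0.5%, and 0.1% was applied to all 4 libraries here so that the settings match. The most frequent insertion was of 1 bp in each library, but it took 62.7% of the reads in library 6 against 1.93%, 8.57% and 2.29% in libraries 5, 2 and 1. Without a minimum, the 2 most frequent deletions held 96.7% of the deletion reads in library 6, 57.1% in library 5, 15.0% in library 2 and 11.1% in library 1. In length, 93.1% of the INDEL reads of library 6 were of 1 or 2 bp, against 51.6% in library 5, 49.5% in library 2 and 29.6% in library 1. The longest insertion past the minimum was 2 bp in library 6, 3 bp in libraries 2 and 1, and 48 bp in library 5.

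Gaps on the locus side were fewer in library 6 than in the other 3 libraries. On the donor side this held only at the first of the 5 nucleotides nearest the site. Its first locus nucleotide was missing in 1.86% of the reads and its second in 0.00586%. The values were 4.23% and 6.11% in library 5, 16.8% and 13.9% in library 2, and 12.0% and 12.99% in library 1. At the first donor nucleotide from the site, gaps were counted in 1.9% of the reads in library 6, 7.59% in library 5, 22.01% in library 2 and 20.2% in library 1. The value of library 6 rests on the authors' placement of its 6 bp deletion, found in 2.98% of the reads. The other equal placement of that deletion removes this nucleotide too. At the second donor nucleotide, library 6 had more gaps than library 5, with 4.90% against 1.97%, and fewer than library 2 with 26.2% and library 1 with 18.9%. From the third to the fifth, library 6 likewise lay above library 5 and below both liver libraries. At the fifth, the values were 7.05% in library 6, 1.97% in library 5, 25.9% in library 2 and 16.5% in library 1. Read starts and ends at the cleavage site summed to 1.00% of the depth in library 6, between 0.236% in library 5 and 7.97% in library 2, with 5.32% in library 1. These sums take ends at the last nucleotide before the site and starts at the first after it. Library 5 had a further 0.707% of ends at the first nucleotide after the site, and with starts and ends at both adjoining nucleotides the sums were 1.51% in library 6, 0.983% in library 5, 10.0% in library 2 and 6.33% in library 1.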

How the data were processed

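After trimming (Cutadapt 1.9) and alignment to the edited sequence that was designed for (BWA-SW 0.7.10), the authors deposited per-position counts made with deepSNV 1.30.0 and lists of INDEL counts by position and length, without normalization. The genome build of that reference is not given in the sources used here. Junctions were named by comparison with the GRCm39 genome; the retinal target is not reported here. In library 6, listed deletions summed to 74482 reads against 74498 in the per-position counts, and insertions to 968535 against 968423. The deletion list of library 1 held 2.00 times its per-position count and was divided by 2. An INDEL position was read as the nucleotide before it, since gaps predicted this way deviated by 0.872%, against 163% for the other reading. Named INDELs are all those past 0.1%, and the next below. The members and lists were chosen with earlier results of these data known. Alternatives covered minimum, window, denominator and source of counts. The selection was also run on simulated data, and no result of that run is given or used here. The quality column and the reads of long insertions in library 5 were not used here. Python 3.11.15, numpy 2.4.6, pandas 2.3.3, scipy 1.17.1 and matplotlib 3.10.9 were used.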

Additional observations from a re-analysis of the deposited data

Results flagged for a closer look

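Several signals lay outside the INDEL shares and above the limit of 0.000213% that 3 reads give. This limit takes no account of sequencing or alignment error. The median share of the second base over all positions, 0.0196%, also lay above it. A 27 bp deletion that opened outside the window was found in 1.87% of the reads at its first position. Second bases at the cleavage site reached 2.14% and 2.36% of the called bases at the second and the first donor nucleotide from it, and 3.02% at the first locus nucleotide. Read ends at the last donor nucleotide and read starts at the first locus nucleotide summed to 1.00% of the depth. Their sources were not tested.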

How the results depend on the processing

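Insertions exceeded deletions under every alternative run for the shares, though most values moved beyond the narrow counting intervals. The INDEL, insertion and deletion shares were 74.2%, 68.9% and 5.30% without a minimum. Raising the minimum to 0.5% gave 73.3% for INDELs and 68.2% for insertions. A window of 5 nt on either side gave an INDEL share of 68.7% and a deletion share of 0%, because both deletions were listed as opening farther from the site. The highest depth in the window as denominator gave 73.1%, 68.1% and 5.07%, and the depth without low-quality bases and gaps 80.6%, 75.0% and 5.59%. Only the denominator changed in these alternatives, with the same INDEL reads. The second set of values is therefore not the share among reads with a called base. The per-position counts gave 74.1%, 68.8% and 5.30%. Alternatives chosen after seeing the data were the whole sequenced region, with 76.5%, 69.0% and 7.49%; the addition of gaps at the first window nucleotide, with an INDEL share of 75.7% and a deletion share of 6.99%; and insertions at the cleavage site only, with 73.3% and 68.2% for INDELs and insertions. The number of INDELs was 164 without a minimum and 4 at 0.5%. The share of INDEL reads with 1 or 2 bp was 93.0% without a minimum. Median rates outside the window were 0.000918% for insertions and 0.00128% for deletions, against highest rates of 0.0157% and 1.87%.

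Depth is not limiting for these shares. The limits are 1 animal, 1 PCR and no molecular identifiers, so neither the spread between eyes nor unequal amplification of short and long products was measured. Products that lost a primer site cannot be amplified, and lists that begin at the window leave out deletions opening before it.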
